A study of Mus musculus with 6 samples.

Results

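Acetylcholine reaches its target cells through a pair of receptor families, and 9 of their genes are described here in the mouse PFC, the prefrontal cortex, under control housing and early life stress (ELS). They are 4 muscarinic receptor genes (Chrm1, Chrm2, Chrm3 and Chrm4) and 5 nicotinic receptor subunit genes (Chrna4, Chrna5, Chrna7, Chrnb1 and Chrnb2), taken by gene symbol from the 22000 rows of the count table, and all 9 were found. Poly(A) RNA of the PFC was sequenced in 3 control and 3 ELS animals, all male C57BL/6N animals of 9 weeks, with 1 library per mouse. ELS mice were housed singly under a filter cap from weaning into adolescence and stayed so until dissection, and control mice were group-housed littermates without the cap. Both groups went through behavioral tests before dissection, and all mice were wild type. Filter cap and isolation were given together, so that their effects cannot be told apart.

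Muscarinic receptors are G protein-coupled receptors. The products of Chrm1 and Chrm3 couple to Gq and phospholipase C, and those of Chrm2 and Chrm4 couple to Gi/o and lower cyclic AMP. Nicotinic receptors are ion channels of 5 subunits. In the cortex the main forms are the α4β2 receptor, made from Chrna4 and Chrnb2, in part with the accessory subunit of Chrna5, and the α7 homopentamer from Chrna7. Chrnb1 encodes the β1 subunit of the muscle receptor. The cortex receives acetylcholine mainly from axons of the basal forebrain, whose somata lie outside the PFC, and this input is known for its part in attention.

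Levels were compared between genes as CPM (read counts scaled to library size with TMM factors) per kilobase of annotated exon. Chrm1 was the most abundant of the 9, at 29.5 ± 1.28 CPM per kilobase in control mice and 28.5 ± 2.76 in ELS mice (SD, n = 3 each). The next levels in control mice were 13.7 for Chrm3, 12.8 for Chrm4, 8.21 for Chrna4, 5.25 for Chrnb2, 3.17 for Chrm2, 2.40 for Chrna7 and 1.71 for Chrna5. Chrnb1 lay far below all others, at 0.14 CPM per kilobase in control mice and 0.21 in ELS mice. Along this order the ranges of the 6 mice overlapped between Chrm3 and Chrm4 and between Chrm2 and Chrna7, whereas all other neighbors were separated in every mouse. The place of Chrm4 depends on its gene model. Its GENCODE model is a single exon of 1440 bp starting at position 91927249, while the RefSeq start lies after position 91922188, so that its level per kilobase may be too high. With the longest transcript as length, the mean of Chrna7 over all mice was 4.12 CPM per kilobase in place of 2.57, above Chrm2 at 3.31 in place of 3.11.

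**Figure D1:**
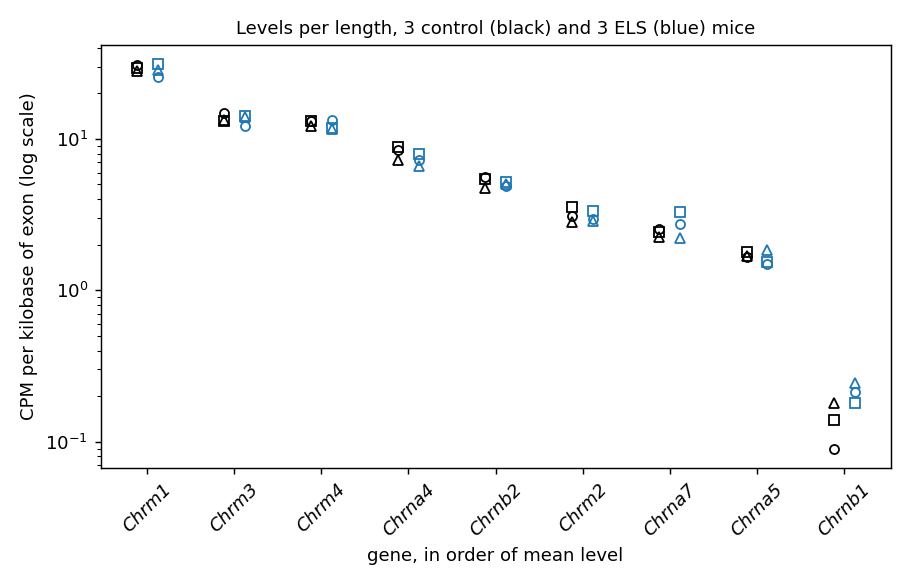
CPM per kilobase of exon (log scale) of the 9 receptor genes in order of their mean level, with 1 point for each of 3 control mice (black) and 3 ELS mice (blue) and circle, square and triangle for mice 1 to 3. Chrm1 stands above all others near 29 CPM per kilobase, and Chrnb1 stands below all others.

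Within the muscarinic family, the Gq-coupled pair Chrm1 and Chrm3 made up 73.0% ± 1.1 of the summed level per kilobase in control mice and 73.2% ± 2.8 in ELS mice (SD, n = 3 each). Chrm1 alone held 49.8% among controls and 49.7% among ELS mice, and Chrm2 5.3% in each group. Chrm4 held 21.6% among controls and 21.5% among ELS mice, with the length of 1440 bp that may make its level too high. In that case the Gq share would be too low, which the SD among mice does not show. Among ELS mice the Gq share ran from 70.0% in mouse 1 to 75.0% in mouse 2, which enclosed the control values of 71.8% to 73.8%. The Gq share thus differed less between the groups than among ELS mice.

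Group differences were tested with the quasi-likelihood test of edgeR over the 13185 genes that reached 1 CPM throughout the control or throughout the ELS group. Calls needed an adjusted p (Benjamini-Hochberg) under 0.05 together with a log2 fold change beyond 0.3 in either direction. Of the 9 receptor genes 8 passed the filter and 0 were called, against 0.0152% of all genes tested. The fold changes of all 8 lay within the 0.3 that a call needed. At an unadjusted p under 0.05 the count was again 0 of 8 in edgeR's quasi-likelihood test, against 4.23% of all genes (1.89% higher and 2.34% lower in ELS mice), and DESeq2, the likelihood ratio test and limma-voom also gave 0. In all 8 the control and ELS mice overlapped, whereas 8.28% of all genes tested had groups that did not, and the adjusted p of each was 0.99998 in the quasi-likelihood test. The fold change was below 0 in 7 of the 8, against 52.5% of all genes tested. Their median log2 fold change was -0.055, beside a median of -0.0046 over all genes tested. Taken without sign, the median log2 fold change over all genes tested was 0.058, so that -0.055 is of ordinary size. With the level of striatal markers as a covariate the median of the 8 was -0.013. In bulk tissue, fewer cells of a type and less RNA per cell cannot be told apart.

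**Figure D2:**
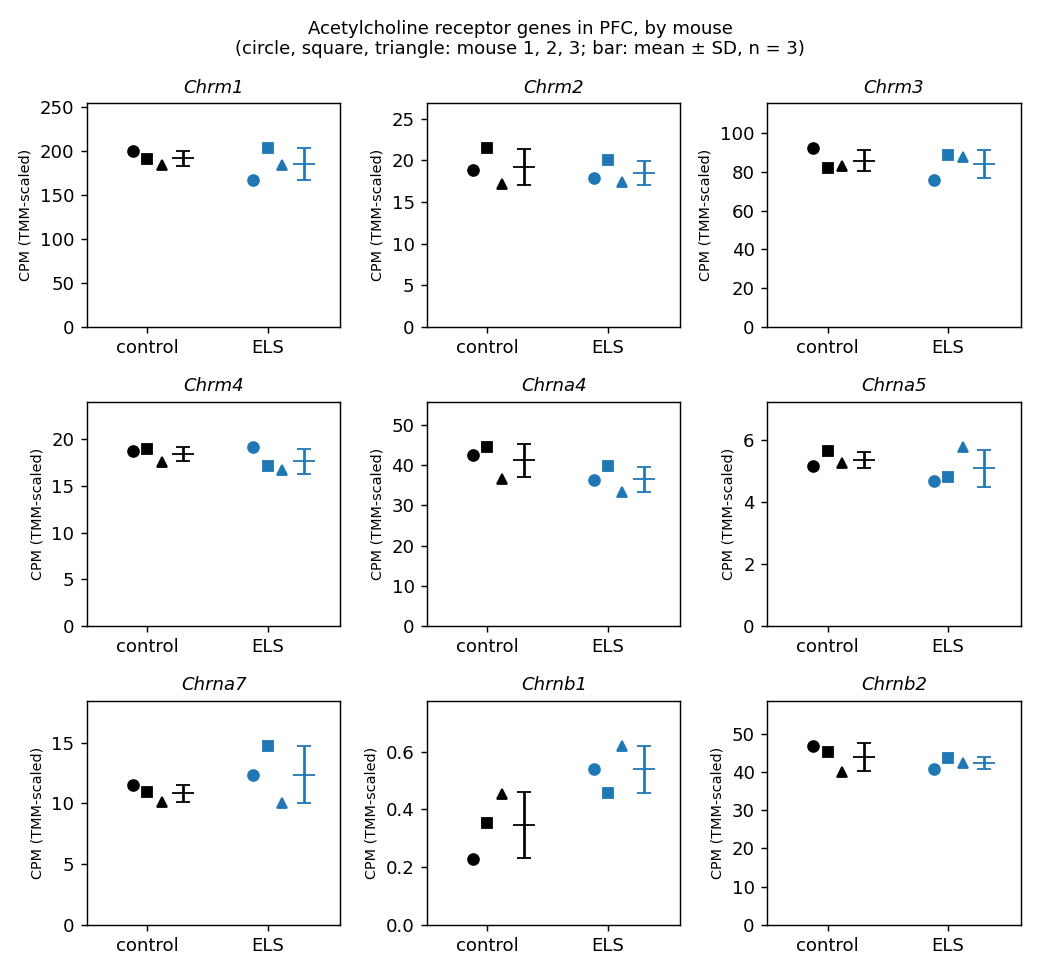
CPM of the 9 receptor genes in each mouse (control black, ELS blue, with circle, square and triangle for mice 1 to 3) beside the group mean ± SD (n = 3), each panel from 0. The groups overlap in all panels but that of Chrnb1, whose level stays under 1 CPM.

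Chrm1, on chromosome 19 from 8663789 to 8683587 (GRCm38, also named mm10, plus strand), had 200, 191 and 184 CPM in control mice 1 to 3 and 167, 203 and 184 CPM in ELS mice 1 to 3. The lowest and the highest value of the 6 both belonged to ELS mice. The log2 fold change of ELS over control was -0.051 (standard error 0.078), with a 95% interval of the percent change from -14.2% to 8.64%. A small noncoding RNA gene on the opposite strand covers 5.07% of its exons.

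Chrm3, the second Gq-coupled receptor, on chromosome 13 from 9875486 to 10360847 (minus strand), had 92.2, 82.0 and 83.2 CPM in control mice and 75.8, 88.6 and 87.9 CPM in ELS mice. ELS mouse 1 was the lowest, as it was for Chrm1, and the other two ELS mice lay within the control range. Its log2 fold change was -0.030 (standard error 0.079), with an interval from -13.0% to 10.4%. The direction was not settled for either gene. Without ELS mouse 1 the log2 fold change was 0.014 for Chrm1 and 0.038 for Chrm3, and for Chrm3 it was also above 0 without control mouse 1, at 0.026. The ratio of Chrm1 to Chrm3 in CPM averaged 2.23 ± 0.081 among controls and 2.20 ± 0.10 among ELS mice (SD, n = 3 each).

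Chrm2 and Chrm4, the Gi/o-coupled receptors, had similar CPM and different lengths. Chrm2, on chromosome 6 from 36388084 to 36528414 (plus strand), had 18.8, 21.5 and 17.2 CPM in control mice and 17.9, 20.1 and 17.3 CPM in ELS mice. In both groups mouse 2 was the highest, and the log2 fold change was -0.055 (standard error 0.10), with an interval from -17.3% to 12.04%. It was 0.033 without control mouse 2. A long noncoding RNA gene on the opposite strand covers 2.35% of the Chrm2 exons.

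Chrm4, on chromosome 2 from 91927249 to 91928688 (plus strand), had 18.8, 18.9 and 17.6 CPM in control mice and 19.2, 17.1 and 16.7 CPM in ELS mice. ELS mouse 1 was the highest of the 6 and the other two ELS mice the lowest. The log2 fold change was -0.062 (standard error 0.089), with an interval from -16.2% to 9.5%. It was -0.13 without ELS mouse 1 and -0.024 without ELS mouse 3. In the striatum Chrm4 is abundant in projection neurons, whose markers varied between these libraries. The sum of 9 striatal markers was 300 and 329 CPM in control mice 1 and 2 and 363 and 389 CPM in ELS mice 2 and 3. It reached 561 CPM in control mouse 3 and 547 CPM in ELS mouse 1, and each of the 9 markers was highest in these 2 mice. The sum of 4 oligodendrocyte markers was also highest there, at 6400 and 5728 CPM, against 4876 to 5367 CPM in the other mice. Chrm4 was lowest among control mice in control mouse 3 and highest among ELS mice in ELS mouse 1. With the striatal level as a covariate the log2 fold change of Chrm4 was -0.067. The covariate brought the fold changes of 6 receptor genes closer to 0, to -0.014 for Chrm1, -0.011 for Chrm2, -0.011 for Chrnb2, 0.0035 for Chrm3, -0.053 for Chrna5 and -0.13 for Chrna4, while that of Chrna7 was 0.22. With it 6 of the 8 were below 0. The covariate cannot separate striatal tissue from other traits shared by control mouse 3 and ELS mouse 1. The part of striatal tissue in the receptor values was not tested.

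Of the cortical markers, the sum of 6 pyramidal neuron genes was high in all mice, from 3502 to 3859 CPM. The summed levels of all 13 marker lists, glial, endothelial and choroid plexus lists included, overlapped between the groups. Sums follow the most abundant genes, and of the 57 marker genes tested singly 0 were called, against 0.0152% of all genes tested. An unadjusted p under 0.05 was reached by 4 of the 57 (Ndnf, Calb1, Cldn5 and Syt6), beside 4.23% of all genes tested, and the groups did not overlap for 3 of the 57 (Syt6, Aldh1l1 and Cx3cr1), beside 8.28% of all genes tested. In each of the lists of upper layers, endothelial cells, astrocytes and microglia, the other markers had fold changes of both signs. The part of these cells in the receptor values was not tested. Total counts ran from 28405795 to 31061421 in control libraries and from 32359353 to 35241743 in ELS libraries.

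The nicotinic subunits gave the widest spread of fold changes among the receptors. Chrna4 had the smallest p of the 8 genes tested and Chrna7 the only fold change above 0. Chrna4, on chromosome 2 from 181018380 to 181043546 (minus strand), had 42.5, 44.6 and 36.6 CPM in control mice and 36.3, 39.8 and 33.4 CPM in ELS mice. ELS mice 1 and 3 were below all control mice, and ELS mouse 2 was above control mouse 3. The mean was 41.2 ± 4.12 CPM in the control group against 36.5 ± 3.18 in the ELS group (mean ± SD of 3 mice). The log2 fold change was -0.17 (standard error 0.091, unadjusted p = 0.0781 in edgeR's quasi-likelihood test), with an interval from -22.8% to 1.59%. It stayed below 0 with each mouse left out, from -0.25 without control mouse 3 (unadjusted p = 0.00626, adjusted p = 0.238 in edgeR) to -0.12 without control mouse 2 or ELS mouse 3.

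Chrnb2, the partner of Chrna4 in the α4β2 receptor, lies on chromosome 3 from 89746195 to 89764632 (minus strand). It had 46.9, 45.3 and 39.9 CPM in control mice and 40.9, 43.8 and 42.5 CPM in ELS mice. All ELS mice lay within the control range. Its log2 fold change was -0.054 (standard error 0.077), with an interval from -14.3% to 8.21%. It was -0.0058 without control mouse 1 and -0.12 without control mouse 3. Adar on the opposite strand covers 16.3% of the Chrnb2 exons, and the strand setting of the counting was not given in the sources used here. The ratio of Chrna4 to Chrnb2 in CPM was 0.906, 0.984 and 0.917 in control mice and 0.888, 0.907 and 0.786 in ELS mice, so that the groups overlapped by the value of ELS mouse 2.

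Chrna5, whose subunit joins α4β2 receptors and is known in layer 6 pyramidal neurons, lies on chromosome 9 from 54980880 to 55007779 (plus strand). It had 5.17, 5.63 and 5.24 CPM in control mice and 4.68, 4.81 and 5.77 CPM in ELS mice. ELS mice held both the lowest and the highest value. The log2 fold change was -0.073 (standard error 0.14), with an interval from -23.5% to 18.2%. It was -0.019 without ELS mouse 1 and -0.17 without ELS mouse 3. The summed level of 7 layer 6 markers ran from 224 to 240 CPM among controls, and from 209 to 232 CPM in ELS mice. Among these markers Syt6, a synaptotagmin gene, had all ELS mice below all control mice, with a log2 fold change of -0.26 (edgeR quasi-likelihood test, unadjusted p = 0.0219 and adjusted p = 0.99998), against 4.47% of all genes with groups separated in this direction. It was picked from the 7 after its values were seen. The groups overlapped for the other 6, of which Foxp2 and Nxph4 were above 0 (0.029 and 0.023), and the median of the 7 was -0.031. The part of layer 6 cells in the values of Chrna4 and Chrna5 was not tested.

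Chrna7, on chromosome 7 from 63098692 to 63212569 (minus strand), had 11.5, 10.9 and 10.1 CPM in control mice and 12.4, 14.7 and 9.99 CPM in ELS mice. ELS mouse 2 stood highest, and ELS mouse 3 was the lowest of the 6. The SD was 0.691 CPM among controls against 2.37 CPM among ELS mice. The log2 fold change of 0.19 (standard error 0.13; edgeR quasi-likelihood test, unadjusted p = 0.177) had an interval from -6.67% to 39.9%. It rested on ELS mouse 2, with 0.043 without this mouse and 0.32 without ELS mouse 3 (unadjusted p = 0.0253, adjusted p = 0.999 in edgeR).

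**Figure D3:**
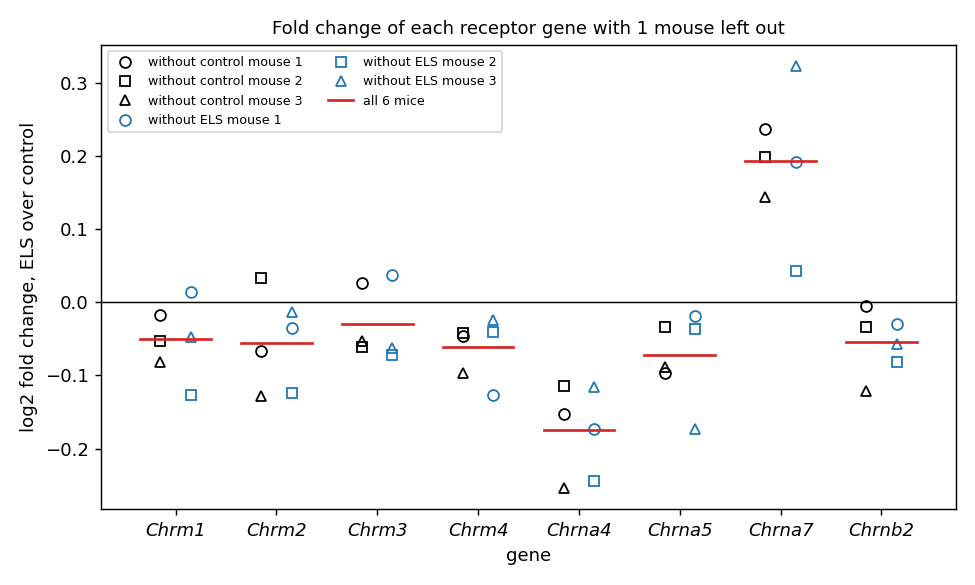
Log2 fold change of ELS over control for the 8 receptor genes tested, with all 6 mice (red bar) and with each control mouse (black) or ELS mouse (blue) left out in turn (circle, square and triangle for mice 1 to 3). Chrm4, Chrna4, Chrna5 and Chrnb2 stay below 0 and Chrna7 above 0 in every fit, while Chrm1, Chrm2 and Chrm3 cross 0.

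Because Chrna4 and Chrna7 had fold changes of opposite sign, the make-up of the nicotinic family was also described per mouse. Chrna4 and Chrnb2 together held 76.6%, 76.6% and 74.6% of the summed nicotinic level per kilobase in control mice and 73.1%, 72.5% and 73.1% in ELS mice. The share was thus lower in each ELS mouse than in any control. This restates in part the values of Chrna4 and Chrna7, which led to this description. In ELS mouse 3 Chrna7 held 13.8%, within the control values of 13.0% to 13.9%. Chrna5 held 11.5% there, the highest of all mice. The ratio of Chrna7 to Chrna4 in CPM, likewise chosen after the values were seen, was 0.270, 0.245 and 0.276 in control mice and 0.340, 0.370 and 0.299 in ELS mice. These groups did not overlap either, beside 8.28% of single genes tested, and no test was made of the share or the ratio.

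Chrnb1, on chromosome 11 from 69784036 to 69795943 (minus strand), had 7, 10 and 13 counts in control mice and 18, 16 and 20 counts in ELS mice. This was 0.345 ± 0.114 CPM in the control group against 0.539 ± 0.0813 in the ELS group (mean ± SD of 3 mice), under the filter of 1 CPM. ELS mouse 2 at 0.458 CPM was just above control mouse 3 at 0.454 CPM. All ELS mice were thus above all control mice, as in 3.81% of all genes tested. Those genes passed the filter that Chrnb1 did not, so the share is not one for genes at its level. The exact permutation test (two-sided) gave p = 0.1, the smallest that 3 against 3 mice allow. With edgeR's own filter, under which Chrnb1 was tested, the log2 fold change was 0.64 (standard error 0.44, unadjusted p = 0.167 in the quasi-likelihood test). Of the skeletal muscle markers, Ckm, the muscle creatine kinase gene, had at most 0.13 CPM in any mouse. Myh4 reached 0.458 CPM and Mylpf 0.650 CPM, beside a highest value of 0.620 CPM for Chrnb1. The sum of the 4 muscle markers ran from 10.2 to 10.98 CPM among controls, and from 10.4 to 11.4 CPM in ELS mice, and most of it came from Acta1, a muscle actin gene.

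Promoter sequences are shown for Chrna4 and Chrna7, which had the largest fold changes in each direction among the 8 receptor genes tested, and for Chrnb2, the partner of Chrna4. Each run holds the 250 bases before a RefSeq start on GRCm38.p6, 5′ to 3′ on the gene's strand. Capitals mark matches on either strand to the GC box GGGCGG, bound by Sp and Klf factors, and to the E-box CACGTG. The cyclic AMP response element TGACGTCA and the Egr site GCGTGGGCG had no match in them. They lie at chr2:181039178-181039427, chr7:63212527-63212776 and chr3:89764633-89764882, all on the minus strand.
Chrna4: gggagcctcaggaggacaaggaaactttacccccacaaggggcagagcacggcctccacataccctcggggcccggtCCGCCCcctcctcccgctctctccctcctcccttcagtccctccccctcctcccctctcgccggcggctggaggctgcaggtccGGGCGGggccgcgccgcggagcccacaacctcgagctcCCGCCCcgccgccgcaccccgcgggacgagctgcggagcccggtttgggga
Chrna7: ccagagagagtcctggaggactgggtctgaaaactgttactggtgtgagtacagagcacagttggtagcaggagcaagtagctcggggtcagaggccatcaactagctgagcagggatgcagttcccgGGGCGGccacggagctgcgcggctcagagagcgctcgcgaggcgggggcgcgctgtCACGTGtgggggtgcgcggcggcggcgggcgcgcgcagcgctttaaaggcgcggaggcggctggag
Chrnb2: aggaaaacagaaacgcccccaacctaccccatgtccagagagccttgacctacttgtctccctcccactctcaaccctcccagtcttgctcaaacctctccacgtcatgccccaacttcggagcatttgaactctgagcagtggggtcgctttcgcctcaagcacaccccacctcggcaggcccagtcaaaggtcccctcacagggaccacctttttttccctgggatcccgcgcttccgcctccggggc

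The Chrna4 run held 3 GC boxes and 24 CpG dinucleotides, the Chrna7 run 1 GC box, 1 E-box and 25 CpGs, and the Chrnb2 run no GC box and 10 CpGs. The median over 32851 RefSeq promoters of this length was 6 CpGs, and 32.7% of them held a GC box and 6.02% an E-box. Of the 8 receptor genes with a promoter in the table, 6 had a GC box before at least 1 start. Among them were Chrm4 with 3 matches and Chrnb1 with 4, of which some overlap and were counted singly. Chrna5 had 4 before 1 start and 0 before the other. The Chrna4 start used here lies within the longer GENCODE gene, which extends further upstream.

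The remaining 12 acetylcholine receptor genes were hardly detected. Chrnb3, the β3 subunit gene, was the only one to pass the filter, with 1.36, 1.03 and 1.19 CPM in control mice and 1.80, 1.72 and 1.27 CPM in ELS mice. ELS mouse 3 fell within the control range, and the log2 fold change of 0.42 (standard error 0.24) came with an unadjusted p = 0.109 in the edgeR test. The other 11 (Chrm5, Chrna1, Chrna2, Chrna3, Chrna6, Chrna9, Chrna10, Chrnb4, Chrnd, Chrne and Chrng) had at most 0.617 CPM in any mouse. Chrna3 and Chrnb4, which lie in a cluster with Chrna5, had at most 0.527 and 0.065 CPM. Chrna9 and Chrnd had 0 counts in every mouse, which at the depth of the smallest library allows up to 0.106 CPM, for counting error only.

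Acetylcholine is made by choline acetyltransferase (Chat), packed by the vesicular transporter Slc18a3, broken down by acetylcholinesterase (Ache) and butyrylcholinesterase (Bche), and its choline is taken up again by Slc5a7. Of 8 such genes 5 passed the filter and 0 were called, against 0.0152% of all genes tested. Bche alone had an unadjusted p under 0.05. Bche had 14.7, 10.02 and 11.4 CPM in control mice and 15.5, 14.99 and 17.1 CPM in ELS mice. Every ELS mouse was above every control mouse, with ELS mouse 2 close to control mouse 1. Its log2 fold change was 0.40 (standard error 0.13; edgeR quasi-likelihood test, unadjusted p = 0.00929 and adjusted p = 0.949), beside the 1.89% of all genes that passed this unadjusted threshold upwards. With each mouse left out it ran from 0.28 to 0.57.

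Ache, the main cholinesterase of the brain, was at 47.5 ± 1.33 CPM in the control group against 48.0 ± 1.73 in the ELS group (mean ± SD of 3 mice). Slc44a1, a choline transporter, had the second smallest p of this group, with a log2 fold change of 0.057 (unadjusted p = 0.419 in edgeR's quasi-likelihood test). Chat had 0.42, 0.25 and 1.01 CPM in control mice and 0.66, 0.23 and 0.16 CPM in ELS mice. Slc5a7 had 1.01, 2.02 and 3.67 CPM in control mice and 3.54, 1.92 and 1.15 CPM in ELS mice, with a log2 fold change of -0.0099 (standard error 0.43). The cholinergic neuron markers Chat, Slc18a3, Slc5a7 and Lhx8 were each highest in control mouse 3 and ELS mouse 1, the 2 libraries with the most striatal markers. For Lhx8 these were 6 and 4 counts, against at most 3 in the other mice, too few to rank.

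**Figure D4:**
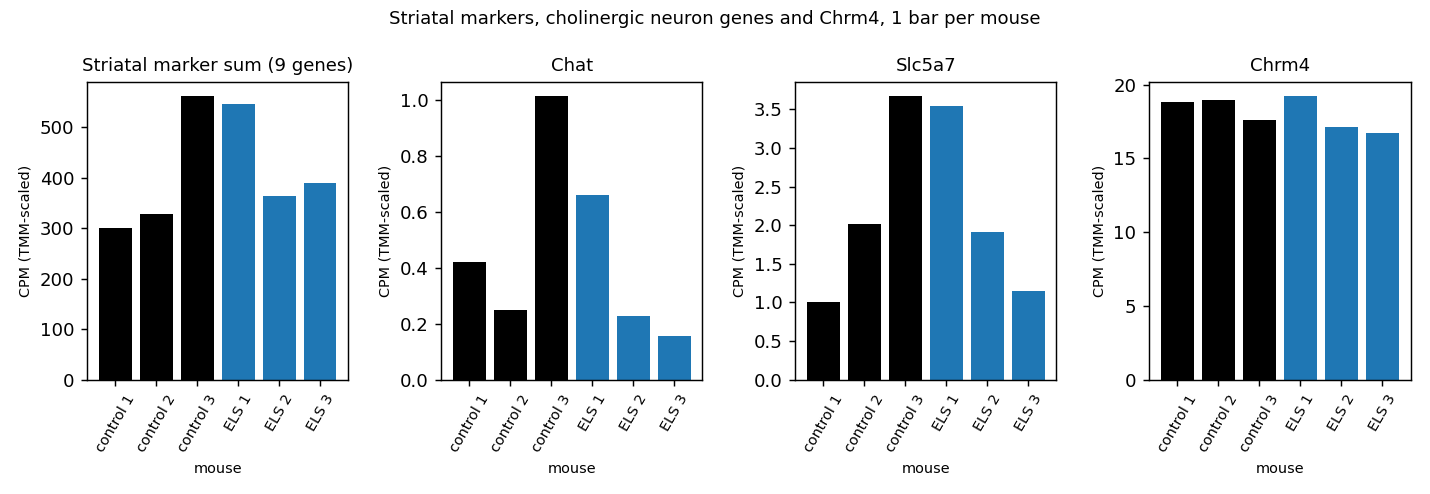
CPM in each mouse (control black, ELS blue, 1 bar per mouse, from 0) of the sum of 9 striatal markers, of the cholinergic neuron genes Chat and Slc5a7, and of Chrm4. Control mouse 3 and ELS mouse 1 are highest in the first 3 panels, while Chrm4 stays between 16.7 and 19.2 CPM in all 6 mice.

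Genes for the assembly of nicotinic receptors and their Ly6 modulators were mostly well expressed. Of 9 such genes 8 were tested and 0 called, against 0.0152% of all genes tested. The chaperone gene Ric3 had a log2 fold change of -0.048 and Tmem35 (Tmem35a, the chaperone NACHO) one of 0.040. The 2 smallest p of this group belonged to Ly6 family members. Ly6h had 130, 119 and 131 CPM in control mice and 143, 132 and 135 CPM in ELS mice, all above control, with a log2 fold change of 0.11 (unadjusted p = 0.125 in edgeR's quasi-likelihood test). Lypd1 had a log2 fold change of 0.11 (unadjusted p = 0.167 in the same edgeR test), and its groups overlapped.

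The signaling genes downstream of the muscarinic receptors were counted by arm, beside the 0.0152% of all genes tested that were called. For the Gq arm, from Gnaq through phospholipase C and protein kinase C to the Kcnq channels of the M-current, 12 of 12 genes were tested and 0 were called. Log2 fold changes ran from -0.11 for Kcnq3 to 0.15 for Prkca, a protein kinase C gene (unadjusted p = 0.166 in edgeR's quasi-likelihood test). For the Gi/o arm, 10 of 10 were tested and 0 called, with log2 fold changes from -0.16 for Adcy1, an adenylyl cyclase gene (unadjusted p = 0.124 in edgeR), to 0.082 for Kcnj3, a subunit of the potassium channel opened by Gi/o. Gnai1, a Gi α subunit gene, had 0.077 (unadjusted p = 0.259 in edgeR). Single mice moved these values. Adcy1 was at -0.25 without control mouse 3 and at -0.067 without control mouse 2, and Prkca at 0.24 without ELS mouse 1 and at 0.051 without control mouse 3.

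For each receptor gene, the tested gene with the most similar profile was found by Pearson correlation of log2(CPM + 1) over the 6 mice, as a description. It was Clcn3 for Chrm1 (r = 0.979), Caprin2 for Chrm2 (r = 0.996), Kctd2 for Chrm3 (r = 0.994) and Galnt9 for Chrm4 (r = 0.974). For the nicotinic subunits it was Ccdc6 for Chrna4 (r = 0.992), Tmtc3 for Chrna5 (r = 0.991), Pcdhgc4 for Chrna7 (r = 0.987), Ppp1r3c for Chrnb1 (r = 0.985) and Snrk for Chrnb2 (r = 0.993). Between 56 genes, for Chrna7, and 494 genes, for Chrnb2, had r above 0.9, so that with 6 mice the leading gene stands little apart from many others.

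Over the 5 lists of other cholinergic genes, 36 of 51 genes were tested and 0 called, against 0.0152% of all genes tested. All ELS mice were above all control mice in 3 of the 36 (Bche, Ly6h and Adcy5), against 3.81% of all genes tested, and below them in 0, against 4.47%. The median log2 fold change was 0.017.

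**Figure D5:**
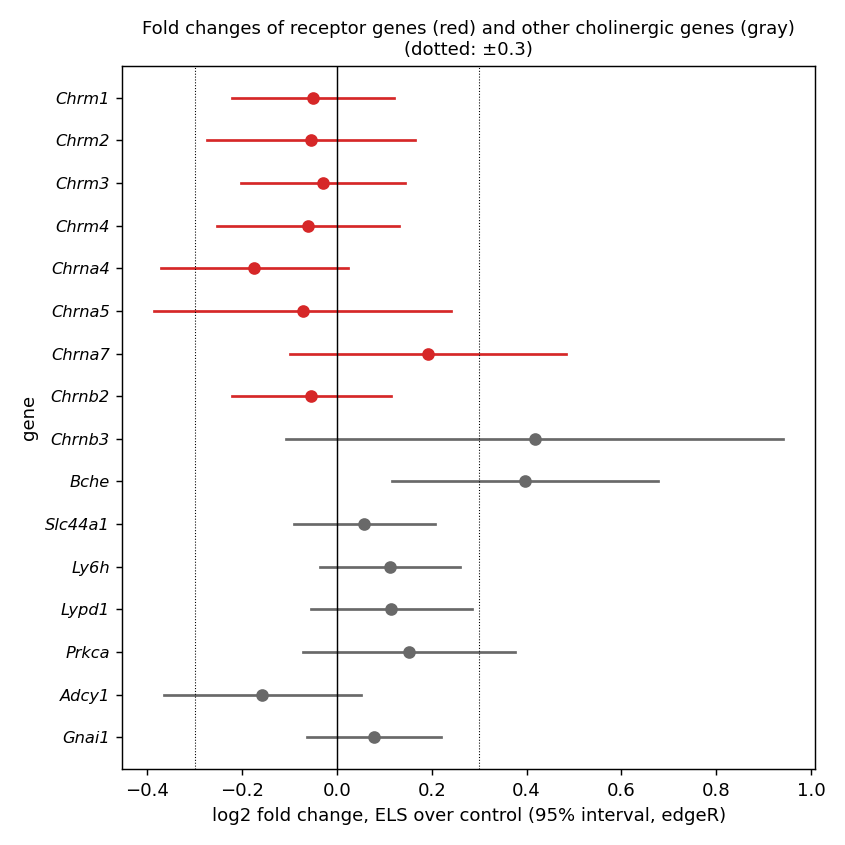
Log2 fold change of ELS over control with its 95% interval (edgeR's quasi-likelihood test) for the 8 receptor genes tested (red) and 8 other cholinergic genes named in the text (gray), with dotted lines at ±0.3. The intervals of all receptor genes include 0, and Bche is the only gene shown whose interval lies above 0.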

How the data were processed

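According to the paper's methods and the submitters' notes, trimming used Trimmomatic, alignment to mm10 used STAR (2.7.1a in the notes, another version in the paper) and HTSeq (0.9.1) counted uniquely mapped reads. The table the authors deposited holds raw counts by gene symbol, 1 column per mouse. The annotation release and strand setting are not given in the sources used here. The paper and the labels name different stranded mRNA kits. Columns of ELS mice carry an abbreviation of social isolation, and were assigned through it and their number. Libraries held 28405795 to 35241743 counts, with the ELS libraries the deeper ones. Precision was limited by the 3 mice per group and, for genes of few counts, also by counting error. No pair of mice within a group agreed within sampling noise (lowest chi-square over its degrees of freedom 6.25).

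The software was R 4.3.3, edgeR 4.0.16, limma 3.58.1 and DESeq2 1.42.0. The test was checked on simulated data, in which most changes of the size of the fold threshold were missed. At an adjusted p under 0.05 it recovered 16.5% of simulated log2 changes of 0.3, 77% of those of 0.5 and 95.5% of those of 0.8. The filter asked for 1 CPM in each mouse of either group, TMM factors were computed, and the quasi-likelihood fit compared ELS with control without covariates. The study used DESeq, and DESeq2 is an alternative here. Standard errors came from the F statistic. Exon lengths and positions are from GENCODE M21 (GRCm38), and promoters from RefSeq (GRCm38.p6), with 8 of 9 receptor genes matched. The members, gene lists and tests were chosen with earlier results of these data known. The genes named are the 9 receptors, the 12 other receptor genes and, from each other pathway list, those with unadjusted p under 0.05 and the 2 with the smallest p, of which 1 is not reported here. Others (Syt6, Foxp2, Nxph4, Ndnf, Pvalb, Htr3a, Calb1, Cldn5, Aldh1l1, Cx3cr1, Ache, Ric3, Tmem35, Kcnq3, Kcnj3, Adcy5, Ckm, Myh4, Mylpf, Acta1, Chat, Slc18a3, Slc5a7 and Lhx8) were named after their values were seen. Of 10 striatal markers, Drd1 was not analysed here. Alternatives were other tests, normalizations and filters, a striatal covariate, a replicate block, other gene lengths and leaving out each mouse.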

Additional observations from a re-analysis of the deposited data

How the results depend on the processing

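The count of receptor genes called was 0 in each of 15 alternatives: DESeq2, the likelihood ratio test, limma-voom, DESeq2 size factors, upper-quartile factors, no filter, filterByExpr, the striatal covariate, the replicate block and the 6 fits without a mouse. The smallest adjusted p was 0.238, for Chrna4 without control mouse 3. Over all genes, 2 were called with all mice, 18 with DESeq2, 28 with the likelihood ratio test, 30 with the striatal covariate, 7 with the replicate block, 4 with no filter and 1 to 29 with a mouse left out (29 without control mouse 3), and the cause was not tested. At an unadjusted p under 0.05, 1 receptor gene passed with the replicate block (Chrna4, unadjusted p = 0.0385 against 0.0781 without the block, both from the edgeR model across all genes), and 0 to 1 with a mouse left out: Chrna4 without control mouse 3 or ELS mouse 2, and Chrna7 without ELS mouse 3. Of all genes, 4.35% passed with the block, 11.7% without control mouse 3, 3.88% without ELS mouse 2 and 2.77% without ELS mouse 3, against 4.23% with all mice. Same-numbered mice had correlations of deviations of -0.164, 0.258 and -0.0355, so the numbers were not taken as pairs. Of 120 fold changes of the receptor genes under alternatives, 115 kept their direction and none was called, though Chrna7 passed the fold threshold without ELS mouse 3 (0.32). The 5 that changed sign were those of Chrm3 with the striatal covariate (0.0035) and of Chrm1, Chrm2 and Chrm3 under the omission of single mice, with ranges from -0.127 to 0.014, from -0.128 to 0.033 and from -0.072 to 0.038. In the fits without a mouse, 5 to 7 of the 8 were below 0, and their median ran from -0.092 to -0.025. Of the other pathway genes 0 were called with DESeq2, with the replicate block or without any one mouse. The number at an unadjusted p under 0.05 ran from 1 to 3 with a mouse left out, the 3 being without control mouse 3, where 11.7% of all genes passed. With the longest transcript as gene length, the Gq share of the muscarinic sum in control mice was 75.7%, and the share of Chrna4 and Chrnb2 in the nicotinic sum was 71.9% in control and 68.5% in ELS mice, since these shares follow the lengths. Chrm4 had 1440 bp by both lengths, so that this alternative does not address its gene model. For genes under 1 CPM, such as Chrnb1, counts of 7 to 20 limit any statement.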

Other observations

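Ndnf, a marker of layer 1 interneurons, was looked at beside Chrna7 after the values were seen. Ndnf had 14.5, 12.4 and 10.4 CPM in control mice 1 to 3 and 20.5, 21.0 and 14.0 CPM in ELS mice 1 to 3. Its log2 fold change was 0.57 (standard error 0.15; edgeR quasi-likelihood test, unadjusted p = 0.0028 and adjusted p = 0.714). ELS mouse 2 was the highest and control mouse 1 the highest of its group for both genes, while ELS mouse 3 was the lowest of the 6 for Chrna7 and not for Ndnf. These groups overlapped, and 1.89% of all genes tested had an unadjusted p under 0.05 upwards. Of the 9 interneuron markers, 6 had a log2 fold change above 0 and 3 below, from -0.16 for Pvalb to 0.57 for Ndnf, with Htr3a at 0.35 next to Ndnf and a median of 0.0080. The sum of 9 interneuron markers ran from 1012 to 1089 CPM among controls, and from 1045 to 1102 CPM in ELS mice. The part of these cells in the Chrna7 values was not tested.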
